A study of Mus musculus with 16 samples.

Results

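The trigeminal ganglia of Nogo-A knockout (KO) mice were compared with those of wild-type (WT) mice 25 days after birth (P25). The comparison used 8 of the 16 libraries of the series, namely all 4 labelled P25 Nogo-A KO and all 4 labelled P25 WT, and every gene measured in them. The other 8 libraries came from WT and KO ganglia on day 14 of embryonic life (E14), 4 of each, and entered the model to share 1 estimate of the spread. Per the labels, each library held polyadenylated RNA of 1 whole ganglion, and each group held 4 animals. Library names nevertheless raise the possibility that some E14 ganglia came from shared animals. The sources used here give no strain, sex, allele design or treatment. In whole ganglia, fewer cells of a type and less RNA per cell cannot be told apart. Of 25719 gene identifiers, 15109 passed the filter on low counts. Levels below are counts per 1000000 counts of scaled library size (CPM). A gene is said to be called, to have risen or to have fallen at an edgeR quasi-likelihood adjusted p under 0.05. KO replicate 4 is said to follow the other KO libraries where it lies beyond all 4 WT libraries on the side of the mean of KO replicates 1 to 3.

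Nogo-A is the longest protein made from Rtn4, a reticulon gene whose shorter products are Nogo-B and Nogo-C. It is known as a membrane protein that restrains neurite growth through the Nogo receptor and its co-receptors, which signal to RhoA and the ROCK kinases. Sensory neurons of the face have their cell bodies in this ganglion, where satellite glia wrap them and Schwann cells, vessels and immune cells surround them. Immediate early genes, which supply many of the results below, are transcribed within minutes of stimulation without new protein synthesis. They encode transcription factors, feedback inhibitors and secreted proteins, and many are driven by serum response factor at CArG boxes or by CREB at cyclic AMP response elements. Glucocorticoid hormone acts through the glucocorticoid receptor, which binds a palindromic element, and raises such genes as Fkbp5, Tsc22d3 and the metallothioneins in many tissues. FOXO factors raise genes of fasting and oxidative stress.

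Library totals ran from 22797780 to 29562379 counts at P25. Rtn4 (GRCm38 chromosome 11, 29692947 to 29744331) read 494, 542, 512 and 406 CPM in WT and 364, 379.9, 345 and 384 CPM in KO (log2 fold change -0.41, SE 0.26, edgeR adjusted p = 1). All 4 KO libraries, replicate 4 included, lay below all 4 WT libraries, but the gene total also counts Nogo-B and Nogo-C and so does not check the genotype labels. All 16 sensory neuron, 15 satellite glia and 16 myelin marker genes listed were tested, and 4 of 10 pituitary markers were at 0 in all P25 libraries. Several libraries stood apart by at least 2-fold from all the other 7 over 13651 genes: WT replicate 4 was low for 106 genes, WT replicate 2 was high for 32, led by interferon genes, and KO replicate 4 was high for 20 and low for 12. Y-linked genes were at 0 in WT replicate 3 and in KO replicates 1 and 4, so both groups were mixed in sex. The library name of KO replicate 4 carries another number than its title.

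The reference sequences upstream of 5 genes are shown because they carry the elements named above. Each is the 250 bases before the annotated start, from RefSeq on GRCm38.p6, written 5′ to 3′ on the strand of the gene. Capitals mark a CArG box in Zfp36 (chr7:28379229-28379478, minus strand), the cyclic AMP response element TGACGTCA in Btg2 (chr1:134079156-134079405, minus strand) and Dusp1 (chr17:26508473-26508722, minus strand), and the glucocorticoid type palindrome GNACA, any 3 bases, TGTNC in Txnip (chr3:96557707-96557956, plus strand) and Mt1 (chr8:94178839-94179088, plus strand).
Zfp36: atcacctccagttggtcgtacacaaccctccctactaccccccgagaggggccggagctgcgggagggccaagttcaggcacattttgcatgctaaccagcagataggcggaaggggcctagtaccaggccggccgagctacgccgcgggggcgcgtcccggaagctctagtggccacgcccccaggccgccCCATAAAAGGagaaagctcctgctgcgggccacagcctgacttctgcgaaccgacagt
Btg2: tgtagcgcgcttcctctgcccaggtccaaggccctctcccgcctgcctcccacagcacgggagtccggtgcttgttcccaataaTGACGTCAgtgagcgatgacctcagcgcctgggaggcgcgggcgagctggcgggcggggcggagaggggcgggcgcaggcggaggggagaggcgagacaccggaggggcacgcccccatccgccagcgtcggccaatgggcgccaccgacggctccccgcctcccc
Dusp1: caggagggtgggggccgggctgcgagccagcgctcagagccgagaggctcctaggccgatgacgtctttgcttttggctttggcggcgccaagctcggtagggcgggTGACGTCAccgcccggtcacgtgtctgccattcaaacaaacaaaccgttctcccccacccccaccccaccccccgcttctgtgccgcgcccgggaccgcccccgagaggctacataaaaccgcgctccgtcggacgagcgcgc
Txnip: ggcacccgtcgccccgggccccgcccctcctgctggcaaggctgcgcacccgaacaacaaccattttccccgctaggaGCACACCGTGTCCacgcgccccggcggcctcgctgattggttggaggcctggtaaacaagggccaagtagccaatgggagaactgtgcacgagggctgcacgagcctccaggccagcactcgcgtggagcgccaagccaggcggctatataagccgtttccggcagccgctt
Mt1: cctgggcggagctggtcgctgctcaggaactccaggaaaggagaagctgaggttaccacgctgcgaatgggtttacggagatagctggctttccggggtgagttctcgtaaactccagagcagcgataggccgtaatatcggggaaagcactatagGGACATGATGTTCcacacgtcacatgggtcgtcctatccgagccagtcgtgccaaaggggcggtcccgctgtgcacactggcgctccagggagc
The first base of the match lay 58 bases before the start in Zfp36, 166 in Btg2, 143 in Dusp1, 172 in Txnip and 94 in Mt1. Among 27025 genes with such a window, 1.62% held a CArG box on either strand, 1.77% TGACGTCA and 0.440% the palindrome. Of 67 immediate early genes tested, 47 had a window, of which 3 (6.38%) held a CArG box and 7 (14.9%) TGACGTCA. The AP-1 element TGAGTCA was in 1 of the 47 (2.13%) against 5.16% of all windows, and the E-box CACGTG in 7 (14.9%) against 6.86%. Among the immediate early or activity genes called without KO replicate 4, 7 had a window, of which 1 held a CArG box and 1 TGACGTCA. Of 21 tested genes of the list of FOXO and glucocorticoid targets, 19 had a window, and 3 of these, Mt1, Sgk1 and Txnip, held the palindrome (15.8%). Of the same 19, the FOXO element GTAAACA was in 1 (5.26%) against 3.54% of all windows, and CACGTG in 6 (31.6%). A match is a description of these letters and not of a bound site.

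At P25 the KO ganglia had higher levels of Ccn1, Zfp36 and Depp1 and lower levels of Lgals7, Rnf167 and Rassf10. These 6 were among 7 genes called (0.0463% of the 15109 tested), of which 3 were higher (0.0199%) and 4 lower (0.0265%). KO replicate 4 followed for all of the 6 but Ccn1. Ccn1 encodes a secreted matricellular protein that binds integrins. It read 7.13, 5.23, 5.53 and 3.40 CPM in WT and 179, 288, 362 and 4.68 CPM in KO (log2 fold change 5.29, SE 0.72, edgeR adjusted p = 0.00218). KO replicates 1 to 3 were at least 25.1 times the highest WT library, and KO replicate 4 lay inside the WT range. Without that library the edgeR adjusted p for Ccn1 was 4.97e-10. KO replicate 4 was the KO library that departed from the others, so a lower p without it is no separate evidence.

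Zfp36 encodes tristetraprolin, which binds AU-rich messages and speeds their decay. It read 15.7, 9.52, 13.5 and 9.27 CPM in WT and 55.6, 74.1, 34 and 19.0 CPM in KO (log2 fold change 1.93, SE 0.35, edgeR adjusted p = 0.0461). KO replicate 4 followed but was the lowest of the KO libraries, 0.70 above the WT mean on the log2 scale against 2.15 for the mean of the other 3. Depp1, a FOXO target linked to autophagy and peroxisomes, read 2.82, 1.52, 1.40 and 2.28 CPM in WT and 5.52, 6.59, 7.03 and 4.4 CPM in KO (log2 fold change 1.55, SE 0.26, edgeR adjusted p = 0.0380). The groups did not overlap, and KO replicate 4 was again the lowest of its group. Zfp36 stayed called in 3 and Depp1 in 8 of the 16 fits that each left out 1 library, with edgeR adjusted p up to 0.337 (without P25 WT replicate 4) for Zfp36 and 0.202 (without P25 WT replicate 2) for Depp1. Without KO replicate 4 both were called, at edgeR adjusted p of 0.00176 and 0.0107. Among the fits that left out a P25 library, no other called Zfp36, and Depp1 was otherwise called only without WT replicate 1. With a Y-linked covariate the edgeR adjusted p was 0.0642 for Zfp36 and 0.0135 for Depp1.

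Of the genes that fell, Lgals7 encodes galectin-7, a lectin of stratified epithelium. Its counts were 28, 26, 10 and 46 in WT replicates 1 to 4, while KO replicates 1 to 4 had 0, 0, 0 and 1. The scaled ratio of WT to KO was 102, with an exact 95% counting interval of 17.9 to 4050 (edgeR adjusted p = 0.00146). Each KO library was below each WT library, the single count being in KO replicate 4, and the gene stayed called in all 16 fits that left out 1 library. Rnf167, on the same chromosome as Rtn4 (GRCm38 chromosome 11, 70647235 to 70651421), encodes a ubiquitin ligase of endosomes and lysosomes. It read 82.7, 87.6, 86.1 and 114 CPM in WT and 35.0, 44.8, 49.4 and 42.1 CPM in KO (log2 fold change -1.11, SE 0.19, edgeR adjusted p = 0.0411). KO replicate 4 sat in the middle of the KO values. Rassf10, a Ras association domain gene, read 5.27, 4.00, 4.13 and 4.02 CPM in WT and 2.31, 1.68, 1.51 and 2.10 CPM in KO (log2 fold change -1.19, SE 0.21, edgeR adjusted p = 0.0461). The value of KO replicate 4 followed here too. Rnf167 stayed called in 5 and Rassf10 in 1 of the 16 such fits, all of them without an E14 library. Leaving out any 1 P25 library ended both calls. Their edgeR adjusted p ran up to 0.187 (without P25 KO replicate 1) and 0.281 (without P25 KO replicate 3), and each was 0.0545 without KO replicate 4. With the Y-linked covariate the edgeR adjusted p was 0.0642 for Rnf167 and 0.0573 for Rassf10. With only the P25 libraries fitted, 3 genes were called (0.0204% of 14670). There Rnf167 was called and Ccn1, Zfp36, Depp1 and Rassf10 were not (edgeR adjusted p 0.0276 against 0.111, 0.160, 0.111 and 0.160), and Lgals7 did not pass the count filter. DESeq2 called 17 genes (0.102% of 16737) over the 16 libraries.

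**Figure D1:**
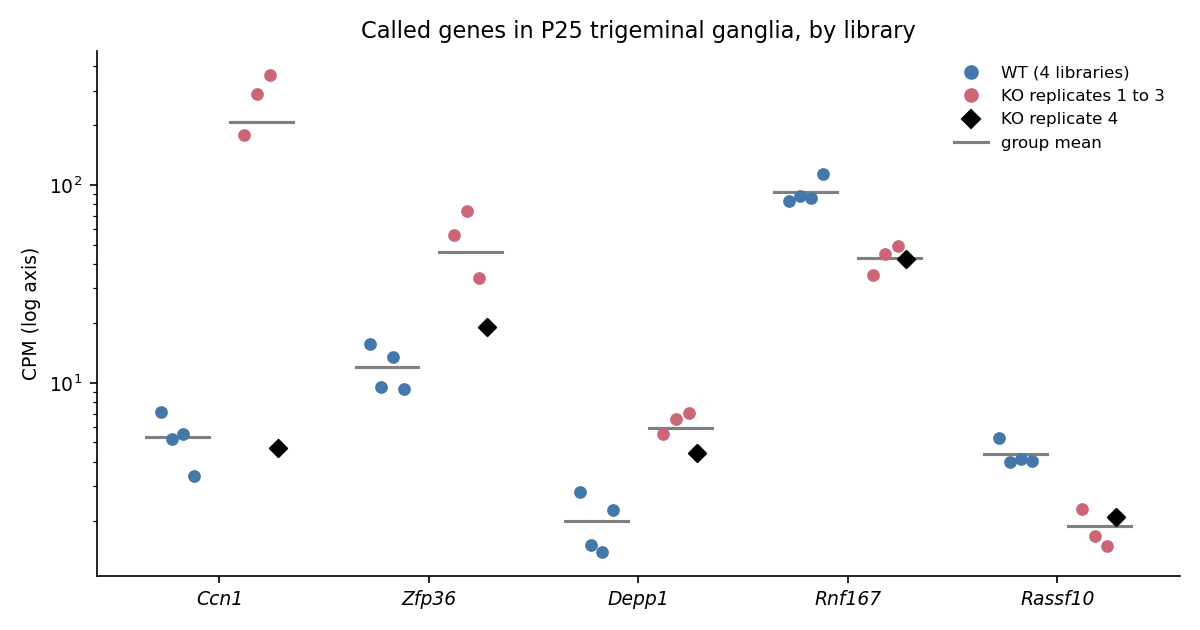
Levels of 5 called genes in the 8 P25 libraries, in CPM on a log axis. Each point is 1 library, grey bars are group means over 4 libraries, and the black diamond is KO replicate 4, which lies with WT for Ccn1 at 4.68 CPM and with KO for the other 4 genes.

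Over all tested genes, KO replicate 4 differed from WT about as often as the other KO libraries. It lay above all 4 WT libraries for 2910 genes (19.3%) and below for 2526 (16.7%), while KO replicates 1, 2 and 3 lay above for 2924, 2571 and 2665. Its position against the other KO libraries was less uniform. KO replicates 1 to 3 all lay above all WT libraries for 595 genes (3.94%) and below for 394 (2.61%), and KO replicate 4 joined them for 309 and 193. Those 309 (2.05%) and 193 (1.28%) are the genes whose groups did not overlap. Left out in turn, KO replicates 1, 2, 3 and 4 joined the other 3 for 72.3%, 77.8%, 30.0% and 50.8% of the genes on which those agreed, so KO replicate 3 joined least often over all genes. For the immediate early genes the order was another one. KO replicate 4 joined for 8 of the 34 genes for which the other 3 lay above WT (23.5%), and each of KO replicates 1, 2 and 3 for 8 of 9, 8 of 8 and 8 of 8. Of the 282 genes with an unadjusted p under 0.05 (1.87%), 191 were higher (1.26%) and 91 lower (0.602%) in KO, and KO replicate 4 followed for 140 (73.3%) and 71 (78.0%), although its own value entered that p. An even spread of p would put 755 of the 15109 genes under 0.05, so these 282 are fewer.

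The immediate early genes as a group read higher in KO replicates 1 to 3 and not in KO replicate 4. Of 74 genes in 5 lists, 67 were tested, 50 with a positive and 17 with a negative log2 fold change, where 46.4% of all tested genes were positive and 53.6% negative. Their median was 0.34 against -0.02 over all tested genes. Among them edgeR called Ccn1 and Zfp36, and DESeq2 called 8. Over all tested genes the share called was 0.0463% with edgeR and 0.102% with DESeq2. The mean over the 67 genes, on the log2 CPM scale, was 3.40, 3.21, 3.29 and 3.33 in WT replicates 1 to 4, and 3.99, 4.02, 4.04 and 3.23 in KO replicates 1 to 4. KO replicate 4 therefore read within the WT range for the group as a whole. It lay below all WT libraries for 20 of the 67 genes (29.9%, against 16.7% of all tested genes). It lay above them for 13 (19.4%, against 19.3%), so that count was near its share over all genes. KO replicates 1, 2 and 3 lay above for 42, 38 and 40 (62.7%, 56.7% and 59.7%, against 19.4%, 17.0% and 17.6%). Without KO replicate 4 the median was 0.40 and 10 of the 67 were called, all higher, against 0.0919% of all tested genes.

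The AP-1 transcription factors pair as Fos and Jun family dimers and are classical markers of recent stimulation. All 8 tested members had positive log2 fold changes, with a median of 0.83. None was called by edgeR, and DESeq2 called Fosb (adjusted p = 1.62e-04) and Junb (0.0292). Fos read 6.56, 7.25, 4.02 and 6.92 CPM in WT and 44.1, 56.7, 25.8 and 3.06 CPM in KO (log2 fold change 2.39, SE 0.52, edgeR adjusted p = 0.169). The 3 KO libraries were at least 3.56 times the highest WT library, and KO replicate 4 lay below the lowest one. Fosb read 1.89, 0.632, 1.47 and 0.773 CPM in WT and 9.26, 12.3, 13.4 and 1.31 CPM in KO (log2 fold change 2.92, SE 0.55, edgeR adjusted p = 0.0642), with KO replicate 4 in the WT range. Junb read 19.9, 12.4, 16 and 18.8 CPM in WT and 43.4, 58.2, 41.3 and 15.2 CPM in KO (log2 fold change 1.24, SE 0.29, edgeR adjusted p = 0.313), and here too KO replicate 4 was inside the WT range. Without KO replicate 4 all 3 were called by edgeR, with adjusted p of 1.53e-04 for Fos, 6.05e-04 for Fosb and 0.00189 for Junb. Maff, a small MAF protein, was 1 of the 2 members in which KO replicate 4 lay above the WT range, with 1.77, 2.49, 1.54 and 2.70 CPM in WT and 3.79, 3.84, 6.07 and 3.21 CPM in KO (log2 fold change 0.99, SE 0.26, edgeR adjusted p = 0.645).

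Among the EGR zinc finger factors, a NAB partner of theirs and the NR4A orphan nuclear receptors, KO replicates 1 to 3 lay above all WT libraries for 5 of 7 tested genes. Nr4a2 and Nab2 did not show this, and for 1 of them KO replicates 1 to 3 lay below all WT libraries. That gene had a negative log2 fold change with an edgeR unadjusted p under 0.05, and KO replicate 4 did not follow. Of the 7, 6 had positive log2 fold changes, none was called by edgeR, DESeq2 called Egr1 (adjusted p = 0.00372) and Nr4a1 (7.34e-04), and KO replicate 4 lay above the WT range for 0 and below it for 3. Egr1 read 62.0, 35.2, 42.7 and 26 CPM in WT and 548, 516, 431 and 13.6 CPM in KO (log2 fold change 3.18, SE 0.61, edgeR adjusted p = 0.0734). Egr3, known for its role in muscle spindle development, read 13.2, 9.40, 10.6 and 8.11 CPM in WT and 55.2, 49.9, 48.2 and 3.25 CPM in KO (log2 fold change 1.92, SE 0.53, edgeR adjusted p = 0.807). In both genes KO replicate 4 was the lowest of the 8 libraries. Egr2, which also drives myelination in Schwann cells, read 32.7, 32.4, 43.5 and 26.5 CPM in WT and 73.7, 71.5, 98.6 and 39.2 CPM in KO (log2 fold change 1.07, SE 0.28, edgeR adjusted p = 0.645), with KO replicate 4 inside the WT range. Nr4a1 read 55.4, 34.9, 51.6 and 47.9 CPM in WT and 163, 197, 260.3 and 39.9 CPM in KO (log2 fold change 1.80, SE 0.36, edgeR adjusted p = 0.102), again with KO replicate 4 inside the WT range. Without KO replicate 4, Egr1, Egr3 and Nr4a1 were called (edgeR adjusted p 4.63e-07, 0.00199 and 6.31e-05) and Egr2 was not (0.114).

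Feedback genes switch the same pathways off again. Of 29 tested, 21 had positive log2 fold changes with a median of 0.20, and Zfp36 was the one called by edgeR, while DESeq2 also called Ier2 (adjusted p = 0.00515) and Nfkbia (0.00372). Ier2 read 10.3, 6.32, 5.42 and 8.07 CPM in WT and 34.1, 41.8, 24.8 and 4.84 CPM in KO (log2 fold change 1.81, SE 0.40, edgeR adjusted p = 0.216), and KO replicate 4 was the lowest library. Btg2, an antiproliferative factor that recruits deadenylases, read 5.80, 7.67, 4.77 and 6.45 CPM in WT and 13.4, 18.3, 15.6 and 5.95 CPM in KO (log2 fold change 1.11, SE 0.28, edgeR adjusted p = 0.632), with KO replicate 4 in the WT range. Both were called without KO replicate 4 (edgeR adjusted p 1.53e-04 and 0.0165). Dusp1, a phosphatase of MAP kinases with the same element as Btg2 in the sequences above, read 42.5, 24.9, 32.8 and 27.9 CPM in WT and 52.8, 58.0, 64.6 and 23.5 CPM in KO (log2 fold change 0.64, SE 0.24, edgeR adjusted p = 1). It was chosen after its values were seen, and KO replicate 4 lay below the WT range. Csrnp1, likewise chosen after its values were seen, read 4.71, 5.52, 5.10 and 5.76 CPM in WT and 10.9, 13.4, 20.7 and 5.48 CPM in KO. Nfkbia, the inhibitor of NF-kB, went another way, with 11, 11, 11.2 and 16.1 CPM in WT and 18.5, 24.1, 25.2 and 27.0 CPM in KO (log2 fold change 0.95, SE 0.20, edgeR adjusted p = 0.169). There KO replicate 4 followed and was the highest library. Ier5 was lower in all 4 KO libraries, at 4.84 to 5.43 CPM against 7.69 to 8.90 CPM in WT (log2 fold change -0.68, SE 0.19, edgeR adjusted p = 0.807), and KO replicate 4 followed.

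Secreted immediate early products showed Ccn1 apart from its relatives. Ccn2, which encodes another matricellular protein of the same family, read 8.62, 5.82, 5.20 and 4.52 CPM in WT and 6.83, 6.25, 15.3 and 11.3 CPM in KO (log2 fold change 0.72, SE 0.33, edgeR adjusted p = 1), and only KO replicates 3 and 4 lay above WT. Thbs1, thrombospondin 1, read 9.30, 9.10, 8.07 and 4.13 CPM in WT and 14.9, 16.3, 14.2 and 3.25 CPM in KO (log2 fold change 0.67, SE 0.38, edgeR adjusted p = 1), with KO replicate 4 the lowest library. Vegfa, the vascular growth factor, stood at 44.4 to 47.5 CPM in KO replicates 1 to 3, 36.9 CPM in KO replicate 4 and 31.1 to 39.7 CPM in WT. Adamts1, a matrix protease, stood at 10.8 to 12.9 CPM, 8.41 CPM and 5.99 to 9.94 CPM in the same order. In both, KO replicate 4 stayed inside the WT range.

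KLF, MYC and CEBP factors were the one immediate early class in which KO replicate 4 did not stand below the others. The mean of their 13 tested genes on the log2 CPM scale was 3.86, 3.94 and 3.86 in KO replicates 1 to 3 and 3.94 in KO replicate 4, against 3.55 to 3.86 in WT, and none was called. Klf9, a glucocorticoid responsive factor, read 39.8, 49.7, 41.1 and 40.8 CPM in WT and 54.6, 57.2, 51.3 and 99.7 CPM in KO (log2 fold change 0.62, SE 0.40, edgeR adjusted p = 1). Every KO value exceeded WT, and KO replicate 4 was the highest. Cebpd, a factor of acute inflammation, read 5.84, 4.42, 4.09 and 9.5 CPM in WT and 6.88, 10.8, 10.6 and 12.3 CPM in KO. Klf4, a Kruppel-like factor of vessels and epithelia, read 2.21, 1.69, 2.26 and 2.09 CPM in WT and 4.2, 2.84, 3.61 and 2.30 CPM in KO. KO replicate 4 lay above the WT range in each. Klf6 stood at 47.6 to 52.9 CPM in KO replicates 1 to 3 and 37.8 CPM in KO replicate 4, the latter inside the WT range.

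A separate list of 12 neuronal activity genes had a median near 0. Fos, Fosb, Junb, Egr1, Egr3, Nr4a1 and Ier2, given above, are not in it and are not covered by that median. Of 10 tested, 6 had positive and 4 negative log2 fold changes, with a median of 0.08 that ran from 0.02 (without KO replicate 4) to 0.12 (without KO replicate 3) when 1 P25 library was left out. KO replicates 1 to 3 all lay above WT for 1 of the 10 and all below WT for 2, and KO replicate 4 followed in none of these. Arc, which encodes a capsid-like protein of synapses and belongs to this list, was the 1 above WT and read 6.08, 4.89, 5.74 and 5.25 CPM in WT and 21.4, 19.3, 11.9 and 2.78 CPM in KO (log2 fold change 1.33, SE 0.41, edgeR adjusted p = 1). KO replicate 4 was the lowest library, and without it the edgeR adjusted p was 0.0165. Vgf, a neuropeptide precursor, stood at 184 to 229 CPM in KO and 144 to 209 CPM in WT, and Rgs2 at 3.92 to 7.26 and 5.89 to 10.4 CPM. Targets of serum response factor and YAP in the cytoskeleton had a median of -0.01 over 16 tested genes, from -0.07 (without WT replicate 2) to 0.08 (without KO replicate 4). Srf itself read 33.3, 19.3, 34.7 and 21.7 CPM in WT and 39.9, 36.0, 52.1 and 19.1 CPM in KO (log2 fold change 0.43, SE 0.28, edgeR adjusted p = 1), with KO replicate 4 the lowest library, and Amotl2 stood at 30.2 to 44.7 CPM in KO replicates 1 to 3, 28.8 CPM in KO replicate 4 and 18.4 to 34.5 CPM in WT.

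**Figure D2:**
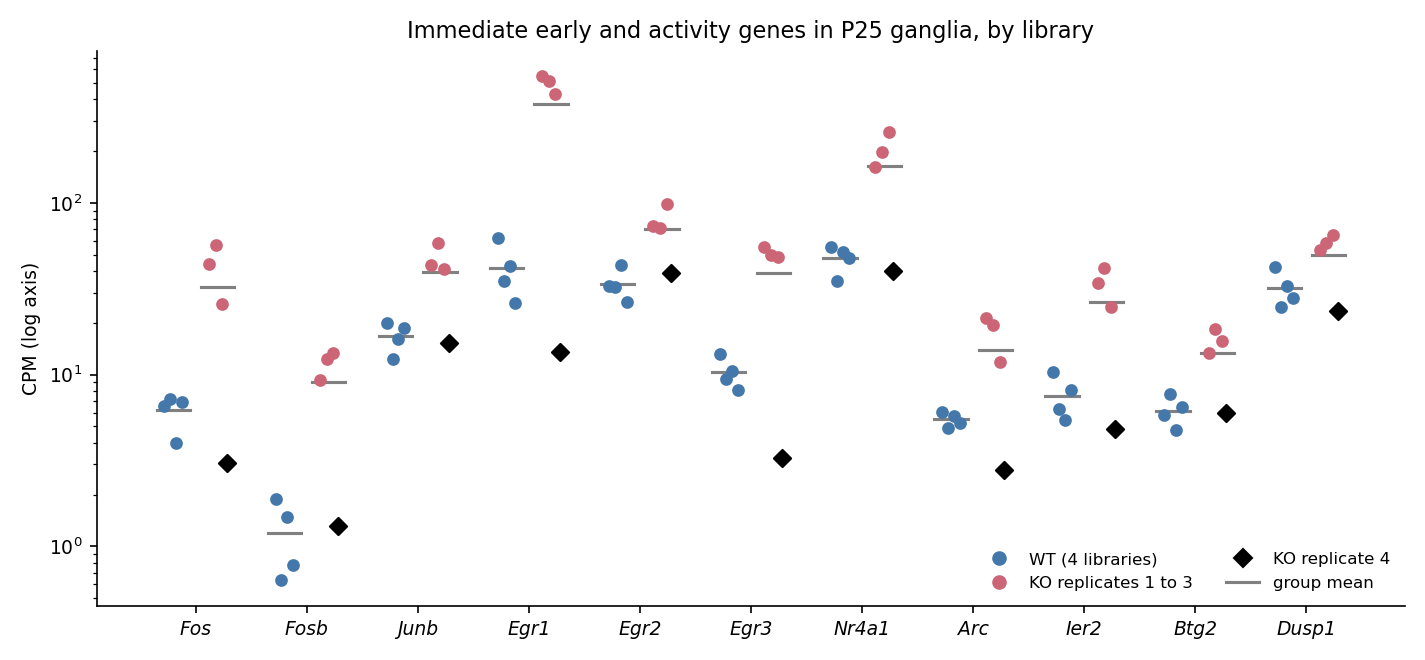
Levels of 11 immediate early and activity genes in the 8 P25 libraries, in CPM on a log axis. Points are libraries, grey bars are group means over 4 libraries, and the black diamond is KO replicate 4, which lies in or below the WT range in all 11 while KO replicates 1 to 3 lie above it. The 11 are a selection. KO replicate 4 joined for 8 of the 34 immediate early genes for which the other 3 lay above WT. None of those 8, such as Zfp36 and Nfkbia, is drawn.

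With KO replicate 4 left out, 14 genes were called (12 higher and 2 lower, 0.0919% of 15232 tested). Of these, 13 are reported here, namely Arc, Btg2, Ccn1, Depp1, Egr1, Egr3, Fos, Fosb, Ier2, Junb, Lgals7, Nr4a1 and Zfp36. KO replicate 4 followed the others for 3 of the 13, namely Depp1, Lgals7 and Zfp36. It lay within the WT range for 5, Btg2, Ccn1, Fosb, Junb and Nr4a1, and beyond WT on the opposite side for the other 5, Arc, Egr1, Egr3, Fos and Ier2. Leaving out a library that departs from its group narrows the spread, so these calls are no separate evidence of a difference. Leaving out any other P25 library gave 2 or 3 calls among the genes reported here.

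Targets of FOXO factors and of glucocorticoid showed the reverse arrangement, with KO replicate 4 far above the other 7 libraries. Of 21 genes tested, 19 had positive log2 fold changes, with a median of 0.24, and Depp1 alone was called by edgeR. KO replicate 4 lay above all WT libraries for 15 of the 21 (71.4%), against 7 (33.3%), 4 (19.0%) and 9 (42.9%) for KO replicates 1, 2 and 3. Over all tested genes the shares were 19.3% for KO replicate 4 and 19.4%, 17.0% and 17.6% for the others. KO replicate 2 was thus near its share over all genes. The mean over the list was 4.97 to 5.03 in the WT libraries on the log2 CPM scale. It was 5.15, 5.21 and 5.33 in KO replicates 1 to 3 and 6.15 in KO replicate 4. The median of 0.24 was 0.07 without KO replicate 4, 0.38 without KO replicate 1 and 0.39 without KO replicate 2.

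Some members were higher in every KO library. Txnip, which encodes a thioredoxin-binding arrestin that limits glucose uptake, read 89.1, 62.4, 75.7 and 64.8 CPM in WT and 103, 114, 136 and 159.8 CPM in KO (log2 fold change 0.81, SE 0.17, edgeR adjusted p = 0.166). Sgk1, a kinase induced by glucocorticoid and serum, read 49.4, 51.5, 41.1 and 50.4 CPM in WT and 59.3, 80.0, 96.2 and 95 CPM in KO (log2 fold change 0.78, SE 0.20, edgeR adjusted p = 0.640). Per1, a clock repressor that is also a direct glucocorticoid target, read 91.1, 49.1, 55.7 and 49.6 CPM in WT and 102, 100.3, 244 and 107 CPM in KO (log2 fold change 1.17, SE 0.31, edgeR adjusted p = 0.645). In these 3 genes the groups did not overlap and KO replicate 4 followed, highest of all in Txnip. DESeq2 called Txnip (adjusted p = 0.00667) and neither of the others (0.0906 and 0.132).

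Other members were highest in KO replicate 4. They were chosen after their values were seen, and no test is given for them. Mt2, a metallothionein that buffers zinc and copper, read 6.36, 11.3, 4.49 and 18.6 CPM in WT and 6.96, 17.4, 11 and 158 CPM in KO. Its neighbour Mt1 read 55.2, 40.1, 31.9 and 49.7 CPM in WT and 48.4, 47.8, 77.9 and 191 CPM in KO. Both were highest in KO replicate 4, and in Mt2 KO replicates 1 to 3 lay inside the WT range. Pdk4, a mitochondrial kinase that shuts off pyruvate oxidation in fasting, read 4.99, 4.42, 5.89 and 4.64 CPM in WT and 5.97, 5.69, 5.70 and 37.6 CPM in KO. Zbtb16, a zinc finger repressor strongly induced by glucocorticoid, read 3.58, 4.42, 4.16 and 1.43 CPM in WT and 3.50, 2.54, 2.10 and 27.3 CPM in KO. Fkbp5, a chaperone of the glucocorticoid receptor, read 33.1, 48.0, 41.8 and 40.9 CPM in WT and 30.2, 26, 30.7 and 99.4 CPM in KO. KO replicate 4 exceeded every other library in each of these 3. Tsc22d3, which encodes the leucine zipper protein GILZ, read 385 CPM in KO replicate 4 against 161 to 226 CPM in the other KO libraries and 182 to 249 CPM in WT. Klf15 read 28.5 CPM against 9.35 to 14.6 and 7.13 to 12.9 CPM in the same order.

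Genes outside the list, again chosen after their values were seen, were also at least 2-fold higher in KO replicate 4 than in every other P25 library. Plin4, a lipid droplet coat protein, read 0.483, 1.14, 1.08 and 0.734 CPM in WT and 0.288, 0.302, 1.3 and 17.3 CPM in KO. Hif3a, a hypoxia-inducible factor subunit, read 1.05, 1.26, 0.718 and 0.850 CPM in WT and 0.700, 0.474, 0.548 and 12.7 CPM in KO. Fam107a, a stress-responsive actin-binding protein, read 20.5, 23.5, 21.2 and 20.1 CPM in WT and 21.1, 18.2, 29.0 and 82.5 CPM in KO. Angpt2, a ligand of the endothelial receptor TEK, read 61.2 CPM in KO replicate 4 against 21.2 to 23.8 CPM in the other KO and 17.4 to 19.5 CPM in the WT libraries. Mertk, a receptor for engulfing dead cells, read 27.1 CPM against 7.99 to 9.96 and 6.14 to 8.86 CPM. KO replicate 4 and KO replicate 1 had no Y-linked counts, the KO totals ran from 22797780 to 24832799, and the mitochondrially encoded share was 1.24% in KO replicate 4 and 1.09% to 1.37% in the others.

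**Figure D3:**
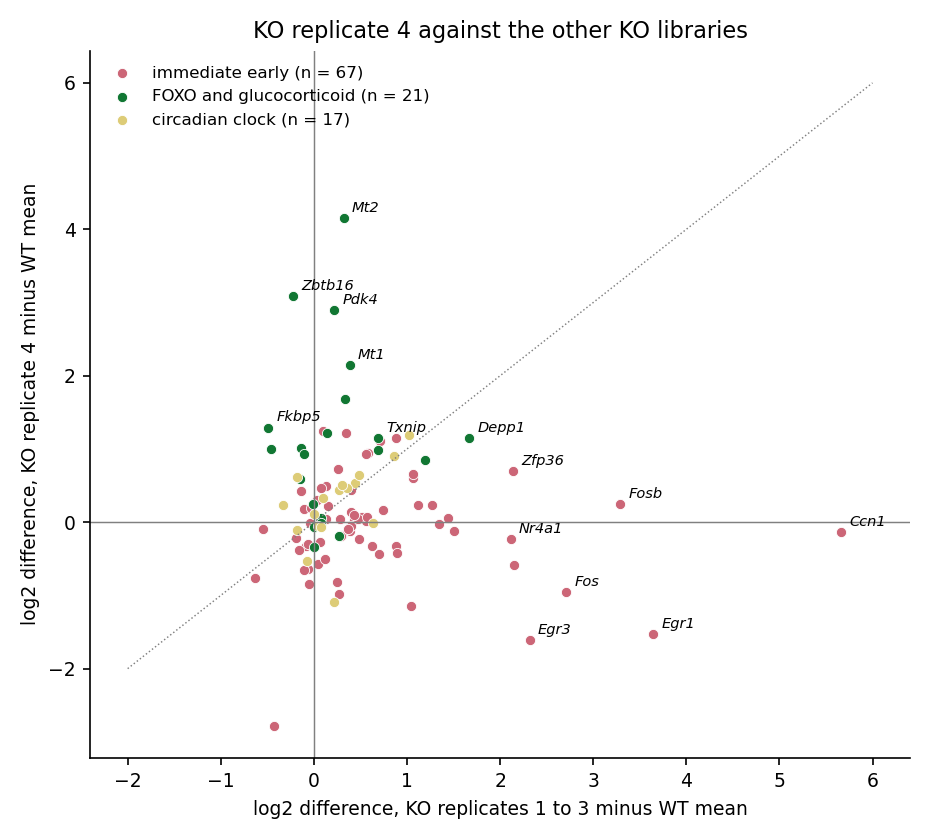
Difference from the WT mean in KO replicate 4 (vertical axis) against the mean of KO replicates 1 to 3 (horizontal axis), as log2(CPM + 0.1), for 67 immediate early, 21 FOXO and glucocorticoid and 17 clock genes. The dotted line marks equal differences: Ccn1, Egr1 and Fos lie far right at or under 0 on the vertical axis, and Mt2, Zbtb16 and Pdk4 lie high near 0 on the horizontal axis.

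Circadian clock genes were higher in KO for 13 of 17 tested, with a median of 0.16, and none was called. Per3, a clock repressor, read 6.48, 7.29, 6.28 and 6.26 CPM in WT and 12.5, 11.5, 12 and 12.3 CPM in KO (log2 fold change 0.88, SE 0.24, edgeR adjusted p = 0.791). The values of the KO libraries, replicate 4 included, lay within 1 CPM of each other and above every WT value. Ciart, a repressor of CLOCK and BMAL1, read 1.53, 2.28, 2.19 and 3.01 CPM in WT and 3.09, 4.14, 7.35 and 5.12 CPM in KO (log2 fold change 1.12, SE 0.47, edgeR adjusted p = 1), and KO replicate 4 followed. Nr1d1, which encodes REV-ERB alpha, read 69.7, 58.2, 62.9 and 52.0 CPM in WT and 98.2, 77.1, 109 and 59.8 CPM in KO (log2 fold change 0.50, SE 0.21, edgeR adjusted p = 1), with KO replicate 4 inside the WT range. Hlf stood at 6.77 to 9.47 CPM in KO and 4.71 to 8.05 CPM in WT. Without KO replicate 4 the median was 0.17.

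**Figure D4:**
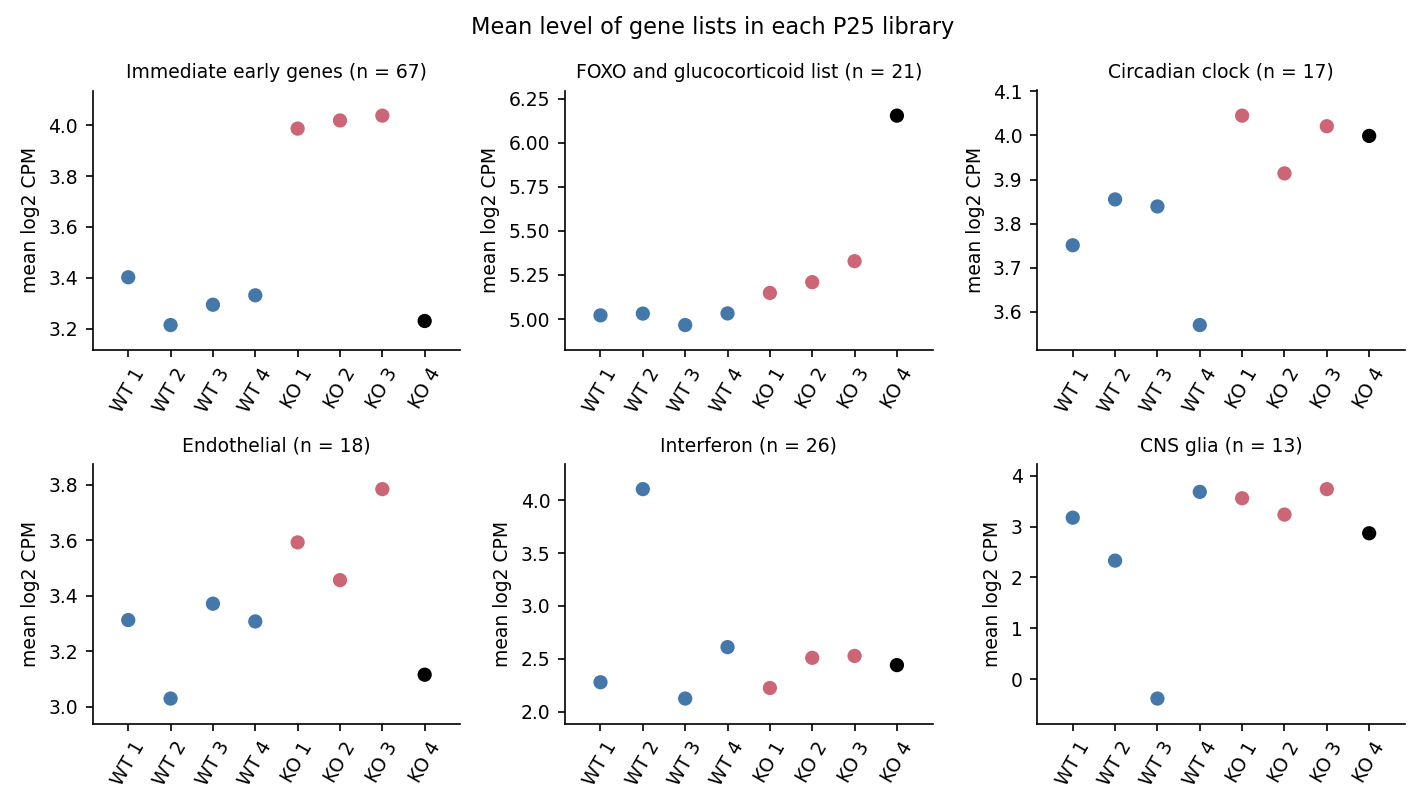
Mean of log2 CPM over the tested genes of 6 lists in each P25 library, with WT in blue, KO replicates 1 to 3 in red and KO replicate 4 in black, and a separate vertical scale per panel. KO replicate 4 lies with WT for immediate early (3.23) and endothelial genes, far above for the FOXO and glucocorticoid list (6.15) and with KO for the clock, while single WT libraries set the interferon and glial panels.

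Other genes with low unadjusted p, none of them called by edgeR, were followed by KO replicate 4 in most cases. Its own value entered the p by which they were chosen, so this is no separate check of that library. DESeq2 called Ryr1 (adjusted p = 0.00952) and Cep89 (0.0153). Ryr1, the calcium release channel of the sarcoplasmic reticulum, read 1.57, 1.01, 1.00 and 1.35 CPM in WT and 3.05, 2.11, 4.79 and 3.69 CPM in KO (log2 fold change 1.46, SE 0.32, edgeR adjusted p = 0.169). Hmgb2, a chromatin protein of dividing cells, read 4.11, 1.81, 2.80 and 3.48 CPM in WT and 4.82, 7.11, 9.49 and 5.16 CPM in KO (log2 fold change 1.12, SE 0.29, edgeR adjusted p = 0.645). In both, each KO library exceeded each WT library. On the other side, Cep89, a centriole protein, read 10.2, 8.43, 10.4 and 10.4 CPM in WT and 5.39, 6.03, 6.53 and 5.52 CPM in KO (log2 fold change -0.75, SE 0.18, edgeR adjusted p = 0.321). Mycn, a MYC family factor, read 5.88, 4.34, 5.42 and 5.41 CPM in WT and 4.04, 3.06, 2.56 and 2.42 CPM in KO (log2 fold change -0.80, SE 0.22, edgeR adjusted p = 0.856). Rlbp1, a retinaldehyde-binding protein, read 15.3, 17.5, 17.0 and 22.8 CPM in WT and 11.3, 11.8, 13.4 and 6.07 CPM in KO (log2 fold change -0.77, SE 0.23, edgeR adjusted p = 1). KO replicate 4 followed in all 3 and was the lowest library for Mycn and Rlbp1. The groups did not overlap for 4 more genes that were lower in KO. Mrps12, of the mitochondrial ribosome, stood at 32.7 to 38.2 CPM in KO and 38.6 to 71.0 CPM in WT. Traf5, a TNF receptor adaptor, stood at 0.502 to 1.15 and 1.62 to 2.26 CPM. Zfp30, a zinc finger gene, stood at 3.91 to 4.68 and 6.07 to 7.77 CPM. KO replicate 4 followed in these 3 and in Sox18, a factor of vessels, which stood at 1.29 to 1.94 and 2.25 to 3.59 CPM. Sox8 stood at 9.48 to 17.0 CPM in KO and 16.1 to 25.2 CPM in WT and overlapped. Among these genes Ryr1, Cep89, Rlbp1, Mrps12 and Zfp30, and among the called genes Zfp36, Lgals7 and Rassf10, lie on chromosome 7 of GRCm38. Zfp36, Mrps12, Lgals7, Ryr1 and Zfp30 lie there between bases 28376784 and 29794702. Cep89, Rlbp1 and Rassf10 lie elsewhere on it, starting at bases 35397035, 79374870 and 112953962. Whether such genes cluster was not tested. Chromosome 7 held 1208 of 15089 tested genes with a position (8.01%) and 36 of the 282 with an unadjusted p under 0.05 (12.8%). It held 47 of the 502 genes whose groups did not overlap (9.36%).

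Nogo-A ligands, receptors and their signalling partners gave no call. Of 21 tested, Rtn4 included, 12 had positive and 9 negative log2 fold changes, with a median of 0.07 (0.01 without WT replicate 2 and 0.11 without WT replicate 3), and 0 were called by edgeR or had an unadjusted p under 0.05. Sdc4, a heparan sulfate proteoglycan, read 44.8, 57.4, 57.3 and 59.8 CPM in WT and 64.6, 69.6, 93.6 and 65.1 CPM in KO (log2 fold change 0.42, SE 0.23, edgeR adjusted p = 1). The groups did not overlap, so KO replicate 4 followed. Rhoa stood at 224 to 299.5 CPM in KO and 259 to 329.5 CPM in WT (log2 fold change -0.18, SE 0.16, edgeR adjusted p = 1), and Rock2 at 25.6 to 33.5 and 15.6 to 25.9 CPM (log2 fold change 0.45, SE 0.42, edgeR adjusted p = 1). These overlapped, with KO replicate 4 below the WT range for Rhoa and highest of the 8 libraries for Rock2. Nociceptor genes had a median of -0.11 (-0.04 without KO replicate 1) over 20 tested genes, 14 of them negative, with Sst at 8.19 to 12.3 CPM in KO and 10.6 to 16.4 CPM in WT and Scn10a at 918 to 1085 and 725 to 1369 CPM, and none was called.

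Cell type markers moved with some of these patterns, and their part in them was not tested. Endothelial genes were positive for 16 of 18 with a median of 0.23, which was 0.38 without KO replicate 4, 0.15 without KO replicate 3 and 0.35 without WT replicate 3. Their summed level was 271 to 345 CPM in KO replicates 1 to 3, 208 CPM in KO replicate 4 and 204 to 260 CPM in WT, so KO replicate 4 stood with WT as it did for the immediate early genes. Sox18, the listed member with the lowest unadjusted p, went the other way. It stood at 1.29 to 1.94 CPM in KO and 2.25 to 3.59 CPM in WT, and KO replicate 4 followed. Robo4 read 4.19, 3.03, 5.20 and 4.33 CPM in WT and 7.95, 5.26, 8.21 and 5.32 CPM in KO and was above WT in every KO library. Tek, the angiopoietin receptor, read 3.22, 3.29, 3.27 and 2.90 CPM in WT and 5.35, 5.43, 5.89 and 3.13 CPM in KO. Pecam1, an adhesion molecule, read 13.7, 11.1, 14.3 and 12.8 CPM in WT and 14.6, 14.7, 24.6 and 13.8 CPM in KO, with KO replicate 4 inside the WT range in both. Myelin genes had a median of 0.04 over 16 tested, which was -0.10 without KO replicate 3, 0.18 without KO replicate 4, 0.10 without KO replicate 2 and 0.11 without WT replicate 3. Their summed level ran from 29777 to 34989 CPM in WT and from 30732 to 46320 CPM in KO replicates 1 to 3, and was lowest in KO replicate 4 at 23376 CPM. Cdh19, a cadherin of Schwann cells, read 7.81, 11.3, 8.15 and 7.38 CPM in WT and 15.6, 19.3, 9.99 and 19.9 CPM in KO. KO replicate 4 was the highest library there, while Mag, a myelin adhesion protein, stood at 97.0 CPM in KO replicate 4 against 126 to 181 CPM in WT. None of the endothelial or myelin genes was called.

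Markers of central nervous system glia were positive for 13 of 13 tested genes with a median of 0.35, and leaving out WT replicate 1, 3 or 4 gave 0.57, 0.12 or 0.93. The mean over the list on the log2 CPM scale was -0.39 in WT replicate 3 against 2.33 to 3.69 in the other WT libraries and 2.87 to 3.74 in KO, with KO replicate 4 the lowest of its group. Mobp, a myelin protein of oligodendrocytes, read 57.0, 17.0, 1.29 and 68.8 CPM in WT and 74.5, 49.9, 83.5 and 35.7 CPM in KO. Ermn, of the oligodendrocyte cytoskeleton, read 1.33, 0.421, 0.0359 and 1.55 CPM in WT and 2.84, 1.81, 2.10 and 0.833 CPM in KO. Olig2, the oligodendrocyte factor, read 0.322, 0.421, 0 and 1.04 CPM in WT and 0.947, 0.905, 1.55 and 0.397 CPM in KO. In each of these 3 genes KO replicate 4 lay within the WT range. Interferon genes were negative for 24 of 26, with a median of -0.46 that became 0.08 without WT replicate 2. Usp18, which removes ISG15 from proteins, read 1.25, 22.6, 0.861 and 3.01 CPM in WT and 1.61, 1.98, 2.19 and 1.71 CPM in KO. Isg15 itself read 2.62, 19.0, 1.76 and 5.02 CPM in WT and 1.48, 2.84, 3.10 and 2.26 CPM in KO. Gbp2, a guanylate-binding protein, read 5.64, 37.5, 6.14 and 8.19 CPM in WT and 4.98, 4.91, 7.26 and 6.75 CPM in KO. In all 3 a single WT library lay far above the other 7. Zbp1, a nucleic acid sensor, read 1.09, 5.27, 0.825 and 1.08 CPM in WT and 0.0823, 0.431, 0.913 and 0.159 CPM in KO. WT replicate 2 was the highest library in all 4, and KO replicate 4 lay within the range of the other KO libraries in all 4. Cell cycle genes were positive for 22 of 32 with a median of 0.18, which was 0.11 without KO replicate 3 and also without WT replicate 3, and none was called. Mki67, the proliferation antigen, read 1.41, 0.632, 0.467 and 0.695 CPM in WT and 2.80, 2.71, 1.83 and 2.14 CPM in KO (log2 fold change 1.56, SE 0.54, edgeR adjusted p = 1). Top2a, a topoisomerase, read 1.77, 1.81, 0.789 and 1.58 CPM in WT and 2.06, 3.36, 3.74 and 2.94 CPM in KO. Ccna2, cyclin A2, read 0.966, 1.18, 0.251 and 0.811 CPM in WT and 1.19, 1.21, 1.55 and 1.35 CPM in KO. In all 3 every KO library lay above every WT library, which held for 3 of the 32 against 2.05% of all tested genes. KO replicate 4 lay above all WT libraries for 9 of the 32 (28.1%, against 19.3%) and below for 7 (21.9%, against 16.7%). Its summed level of 149 CPM was the lowest library, against 176 to 194 CPM in WT. On the log2 CPM scale its mean of 1.33 lay inside the WT range. Ccne1, cyclin E1, was lower in all KO libraries at 12.3 to 17.1 CPM against 19.5 to 20.7 CPM.

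Whether a P25 difference departed from that in E14 ganglia was tested with the interaction of age and genotype over all 16 libraries. No gene was called by edgeR (0 of 15109, with 647 or 4.28% at an unadjusted p under 0.05), 8 were called by DESeq2, and 7 by edgeR without P25 KO replicate 4. The immediate early genes had a median log2 fold change of -0.07 at E14. Zfp36 had a log2 fold change of -0.51 (SE 0.36) at E14, and its difference between ages was 2.43 (SE 0.50, edgeR adjusted p = 0.262). For Ccn1 the E14 value was 1.22 (SE 0.65) and the difference 4.07 (SE 0.92, edgeR adjusted p = 0.426). Txnip and Ryr1 had negative E14 values, -0.38 and -1.02, and positive P25 values. Their differences between ages were 1.19 (SE 0.24) and 2.48 (SE 0.45), each with an edgeR adjusted p of 0.262, and both were among the 8 that DESeq2 called, with Zfp36 and Depp1. The 7 genes called without KO replicate 4 were Ccn1, Zfp36, Ier2, Junb, Fos, Nr4a1 and Egr1. Rnf167 had nearly the same value at both ages, -1.20 (SE 0.20) at E14 and -1.11 at P25, with a difference of 0.09 (SE 0.27). Rassf10 did not share this: E14 WT ganglia held 15.1 ± 2.56 CPM and E14 KO ganglia 15.1 ± 2.13 CPM (SD, n = 4 each), and the difference between ages was -1.19 (SE 0.29, edgeR adjusted p = 0.575).

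**Figure D5:**
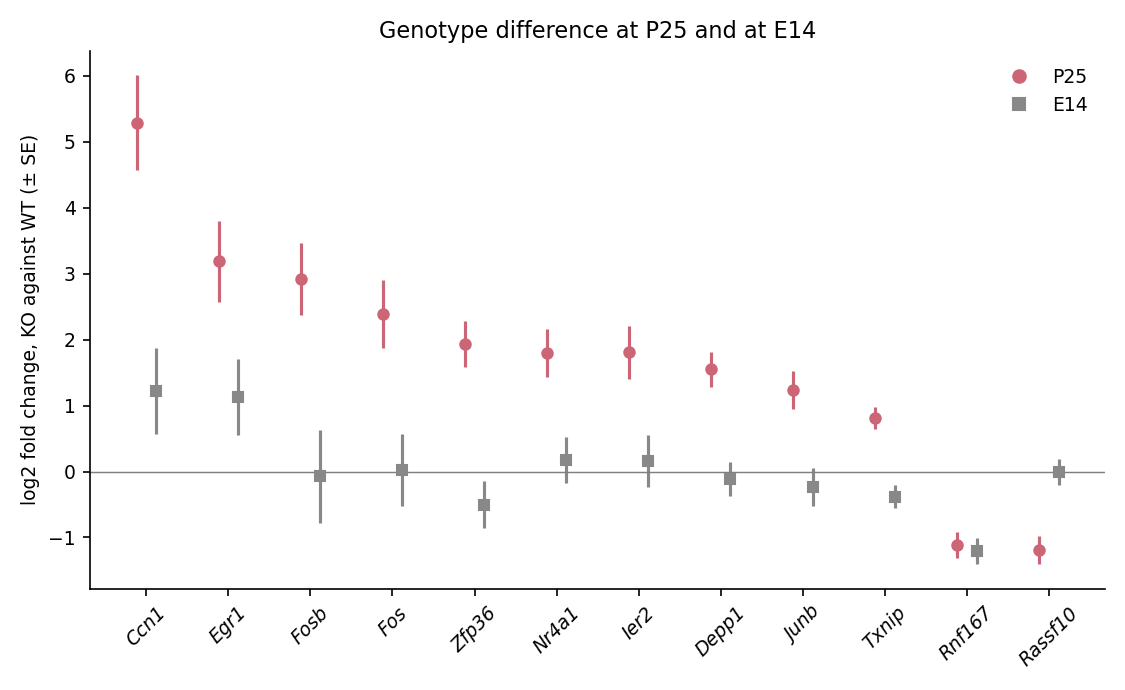
Log2 fold change of KO against WT at P25 (circles) and E14 (squares) for 12 genes, with bars of 1 SE from the edgeR fit to 16 libraries (4 per group). Rnf167 has about the same value at both ages, and the other genes lie further from 0 at P25.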

How the data were processed

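Per the labels' protocols, stranded libraries were made from the polyadenylated RNA of single trigeminal ganglia. The authors deposited whole-number estimated counts for each gene. Per the submitters' processing notes, which give no role or order, GRCm39, DESeq2 1.32.0, kallisto 0.46 and fastp 0.20.0 were involved. The sources used here name neither a strand setting nor an annotation. Estimation can divide a read between transcripts that resemble each other, so genes with a near-identical copy or an antisense partner are uncertain. Symbols were found for 25614 of 25719 identifiers. Positions are from GRCm38 annotation, another build than the notes name, and serve to place genes only.

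The 16 libraries, with 15109 genes after filterByExpr, entered 1 edgeR 4.0.16 quasi-likelihood fit (R 4.3.3, limma 3.58.1) with TMM scaling and 4 group means, and p-values were adjusted by Benjamini-Hochberg over those genes. Standard errors were derived from the F statistic. List means are of log2 CPM with a prior count of 0.5. Groups came from the sample titles. The p-values measure the spread between these ganglia, and library names raise the possibility that 2 pairs of E14 ganglia came from shared animals. The members and the 38 gene lists were chosen with earlier results of these data known. Named genes were Rtn4, all called genes, up to 12 more in each direction by lowest unadjusted p at a mean of at least 1 CPM, all genes called without P25 KO replicate 4, and up to 4 lowest-p members per list. Genes named outside that rule were chosen after their values were seen. The result for 1 called gene is not reported here.

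In simulated counts for the P25 comparison (14941 genes, 200 of them changed), the share recovered was 8.96% at 1.5-fold, 61.2% at 2-fold and 98.5% at 4-fold, and 8 of 120 calls were false. The counts were drawn independently with the fitted spread, with the same shift in all KO libraries and changes only in genes of at least 1 CPM. No simulated library stood apart as real ones did, so these shares may not hold for the real comparison. Counting intervals cover counting error only. Alternatives tried were the P25 libraries alone, robust dispersions, a replicate block, a Y-linked covariate, no or a stricter filter on low counts, totals or RLE in place of TMM, DESeq2 1.42.0, and each library left out. The P25 libraries alone without KO replicate 4 was added after seeing the data. Promoter windows came from RefSeq (GRCm38.p6), and 25 of 33 main named genes had one. Figures were drawn with matplotlib 3.10.9.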

Additional observations from a re-analysis of the deposited data

Results flagged for a closer look

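Levels of 50 of the genes named here were examined for a library far from the other 3 of its group, 100 groups in all. Pdk4, Hif3a, Fkbp5 and Mt2, which stood far higher in KO replicate 4, were not among the 50, nor was Gbp2. The flags are therefore no full list of the genes for which a library stood apart. In 14 of them the gap to the nearest library exceeded Dixon's 95% limit, as a share of the group's range. Chance gives this in about 1 of 20 independent groups. The genes were chosen mostly by low p in these libraries and some vary together, so the 14 cannot be set against that rate. In KO replicate 4, Lgals7 was high at 0.0397 CPM against 0 in the other KO libraries, which is 1 count beside 3 values tied at 0 and so passes the limit whatever its size. In the same library Egr3 was low at 3.25 CPM against 48.2 to 55.2, and Klf9 was high at 99.7 CPM against 51.3 to 57.2. In KO replicate 3, Per1 was high at 244 CPM against 100.3 to 107.

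The other such values among the genes examined were in WT libraries. WT replicate 1 was high for Rassf10 at 5.27 CPM (others 4.00 to 4.13), Zfp30 at 7.77 CPM (6.07 to 6.21) and Per1 at 91.1 CPM (49.1 to 55.7). WT replicate 2 was high for Zbp1 at 5.27 CPM (0.825 to 1.09), Usp18 at 22.6 CPM (0.861 to 3.01) and Klf9 at 49.7 CPM (39.8 to 41.1), and low for Cep89 at 8.43 CPM (10.2 to 10.4). WT replicate 4 was high for Rnf167 at 114 CPM (82.7 to 87.6) and Nfkbia at 16.1 CPM (10.96 to 11.2), and low for Klf6 at 30.6 CPM (38.3 to 39.3). For Rassf10, Rnf167, Zfp30, Zbp1, Usp18 and Klf6 the outlying WT library lay on the side away from the KO mean. For Per1, Klf9, Cep89 and Nfkbia it lay on the side toward the KO mean. Without the outlying WT library of the gene, edgeR called neither Rassf10 nor Rnf167.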

How the results depend on the processing

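The count of 7 called genes was 6 to 9 with RLE scaling, library totals alone, either low-count filter or robust dispersions. DESeq2 gave 17, the P25 libraries alone 3, the Y-linked covariate 4, and leaving out 1 library 3 to 14. The 2 immediate early calls were 8 with DESeq2, 5 with no low-count filter, 0 with the P25 libraries alone, 1 with the Y-linked covariate and 1 to 10 without 1 library. The P25 libraries alone without KO replicate 4, chosen after seeing the data, gave 17 calls, 12 of them immediate early. The interaction count of 0 was 8 with DESeq2 and 0 to 7 without 1 library. The P25 libraries alone had 800 of 14670 genes at an unadjusted p under 0.05, against 282 of 15109 in the fit to 16 libraries. The cause of these shifts was not tested.

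Same-numbered P25 WT and KO libraries had correlations of 0.249, 0.226, -0.200 and 0.0831 in their deviations from the group means, and 2 of the 4 WT libraries correlated best with the KO library of their own number, so the numbers were not taken to pair the ganglia. With the replicate block 2 genes were called and 0 immediate early genes, the edgeR adjusted p being 0.377 for Ccn1, 0.627 for Depp1, 0.356 for Zfp36 and Rassf10, 0.577 for Rnf167 and 0.0121 for Lgals7, and Fkbp5 turned to -0.057. When 1 library was left out, log2 fold changes ran from -0.74 (without KO replicate 4) to 2.27 for Hif3a, from -0.32 to 1.71 for Zbtb16, from -0.50 to 0.39 for Fkbp5, from -0.43 to 2.88 for Plin4 and from -0.10 to 0.38 for Tsc22d3, the negative ends all without that library. With the P25 libraries alone as well they were -0.74, -0.32, -0.50, -0.45 and -0.10. Those for Usp18 ran from -2.26 to 0.13 (without WT replicate 2) and for Mag from -0.053 (without KO replicate 3) to 0.40. The other named log2 fold changes kept their sign in all alternatives run, and 2124 values in all also kept their side of the threshold. Depth limits Lgals7 to a wide interval.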
